A study of Mus musculus with 9 samples.

Results

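The genes described here are 10 members of the Notch pathway in cultured mouse synovial fibroblasts (SFs), namely the receptors Notch1, Notch2 and Notch3, the ligands Jag1, Jag2, Dll1 and Dll4, and the target genes Hes1, Hey1 and Heyl. They were selected by gene name for their role in the pathway, and all 10 were found among the 49548 genes of the deposited tables. The RNA of 9 libraries was read near the 3′ ends of its transcripts, so longer genes are not expected to collect more reads. Of these, 3 libraries came from wild-type (WT) SFs, 3 from hTNFtg SFs and 3 from hTNFtg SFs given infliximab, an antibody against TNF, at 1 µg/mL for 48 hours. WT and hTNFtg SFs had been isolated from ankle joints of CBA C57BL/6J mice aged 8 weeks, and CD45+ cells had been depleted from the cultures at passage 1. The hTNFtg mice carry a human TNF transgene, which the mouse gene annotation does not include, so its level was not checked here. For WT and untreated hTNFtg SFs the sample labels state no treatment, whereas the study's methods describe vehicle for the same time. The 3 libraries of a group are biological replicates. The comparisons ask whether the pathway's genes differ between arthritic and healthy SFs, and whether they move when TNF is neutralised.

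Notch receptors are membrane proteins that are activated by Jagged or Delta-like ligands on a neighbouring cell. Binding exposes the receptor to an ADAM protease and then to gamma-secretase, which releases the intracellular domain. This domain enters the nucleus, joins the DNA-binding protein RBPJ and Mastermind proteins, and switches on genes of the Hes and Hey families, which encode repressors. In the synovium, Notch3 signalling is known for setting up perivascular and sublining fibroblast identity in response to ligands on endothelial cells.

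The approximate depth was 613343 reads on genes in hTNFtg replicate 1 and 3828939 to 9015557 reads in the other 8 libraries. A read was worth 6.23 normalized counts in hTNFtg replicate 1 and 0.534 to 1.10 in the others. A gene was taken to be at the floor in a group when each of its libraries held at most 3 reads, which is 18.7 normalized counts in hTNFtg replicate 1 and 1.6 to 3.31 elsewhere, and this limit covers counting error only. Fibroblast markers were high in all libraries, with summed normalized counts of 37015 to 44469 in WT, 32826 to 40097 in hTNFtg and 31428 to 38463 in infliximab-treated SFs over 10 genes. The 10 macrophage markers summed to 181 to 661 in WT, 3070 to 6295 in hTNFtg and 2006 to 4103 in infliximab-treated SFs, and 7 of them were higher in hTNFtg SFs by the rule given below. The 7 chondrocyte markers in the tables summed to 4456 to 7415, 380 to 942 and 629 to 2003 in the same order, most of it from Comp, with 4373 to 7288, 299 to 848 and 573 to 1933. Of these, Matn1 was at 0 in every WT and hTNFtg library, and Acan, Col9a1 and Comp were lower in hTNFtg SFs, while Col2a1 had a mean of 68.3 in WT and 66.7 in hTNFtg SFs. The part of these cell types in the results that follow was not tested, and in bulk RNA fewer cells of a type and less RNA per cell cannot be told apart.

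Of the 10 members, the ligand Jag1 and the target gene Hes1 had the highest mean levels in each group. In WT SFs the order of mean normalized counts was Jag1 (133.0 ± 43.8), Hes1 (113.0 ± 12.2), Notch2 (64.7 ± 4.04), Notch3 (59.3 ± 32.0), Notch1 (39.7 ± 4.04) and Hey1 (8.0 ± 2.65, all SD, n = 3). The ranges of Jag1 and Hes1 overlapped, as did those of Notch2 with Notch3 and of Notch3 with Notch1, whereas Hes1 stood apart from Notch2 and Notch1 from Hey1. In hTNFtg SFs the order was Hes1, Jag1, Notch2, Notch3, Notch1 and Hey1. There Hes1, Jag1 and Notch2 overlapped from each to the next, Notch2 was apart from Notch3, and Notch3 and Notch1 overlapped. With infliximab the order was Hes1, Jag1, Notch3, Notch2, Notch1 and Hey1, and Hes1 stood apart from Jag1. The ligands Jag2, Dll1 and Dll4 were at the floor in all 3 groups.

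**Figure D1:**
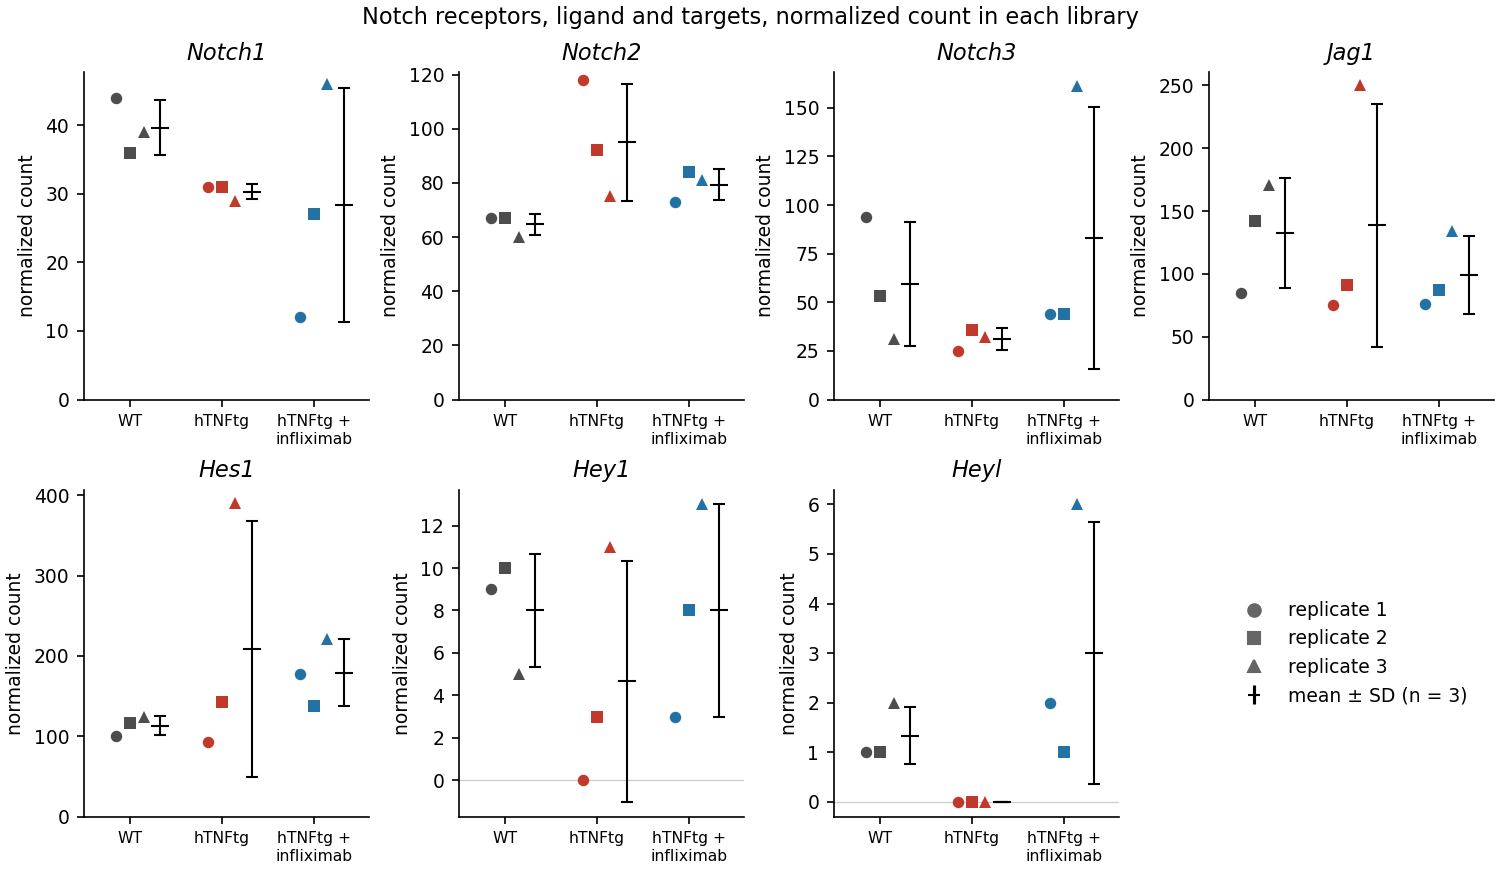
Normalized count (vertical axis, linear) of the 7 members above the floor in at least 1 group, by group. Symbols are libraries 1 to 3 and bars the mean ± SD (n = 3). Hes1 and Jag1 reach 390 and 250 in hTNFtg replicate 3, and Notch3 reaches 161 in infliximab replicate 3.

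The study's rule was used to call a gene higher or lower, which asks for a log2 fold change of 1 or more in size and for an unadjusted P below 0.05, here from limma. In hTNFtg versus WT SFs, 0 of the 10 members were higher and 1 was lower by this rule, beside 3.35% of all 28522 genes higher and 3.04% lower. The lower gene was Heyl, which was at the floor in both groups, so no fold is given for it. The median log2 fold change of the members was -0.04, and that of all genes 0.00. After infliximab, 2 of the 10 members, Notch3 and Heyl, were higher and 0 lower, beside 1.49% and 0.936% of all 28540 genes. Their median log2 fold change was -0.12, and that of all genes was 0.00. Between infliximab-treated hTNFtg and WT SFs, 0 of the 9 members tested passed the rule, beside 3.86% of all 28243 genes higher and 2.95% lower, with a median of 0.00. The tenth, Dll4, was at 0 in all 6 libraries of that comparison. None of the members had a Benjamini-Hochberg adjusted p under 0.05 in limma in any comparison, which 0.48%, 0.0% and 0.74% of all genes had in hTNFtg versus WT, in infliximab-treated versus untreated and in the remaining comparison. At an unadjusted P under 0.05, limma gave 1, 2 and 1 members, beside 7.72%, 3.59% and 11.9% of all genes. The quasi-likelihood test of edgeR gave 1, 2 and 1, beside 2850 of 28522, 1735 of 28540 and 3702 of 28243 genes. Past an adjusted p of 0.05, edgeR had 0 members. In hTNFtg versus WT SFs the member with an unadjusted P under 0.05 was Heyl in limma and Hes1 in edgeR. The libraries of each group serve in a pair of comparisons, which are therefore not independent.

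Of the receptors, Notch1 lies on the minus strand of chr2:26457903-26516663 (mm10). Its normalized counts were 44, 36 and 39 in WT SFs, 31, 31 and 29 in hTNFtg SFs and 12, 27 and 46 with infliximab. All hTNFtg values were below all WT values, while the infliximab libraries spanned the range of both other groups. The log2 fold change in hTNFtg versus WT SFs was -0.37 (standard error 0.40, 95% interval -1.25 to 0.51, limma with Benjamini-Hochberg adjusted p = 0.726). In hTNFtg replicate 1 the value rests on 5 reads. Groups that do not overlap were found for 11.4% of all genes in this comparison. After infliximab the log2 fold change was -0.28 (95% interval -1.45 to 0.88). Against WT SFs it was -0.65 with infliximab (95% interval -1.65 to 0.34), and without infliximab replicate 3 it was -1.09, which passed the rule (unadjusted P = 0.0359 in limma).

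These reads could not be assigned to Notch1 alone. The last exon of Notch1, from 26457903 to 26460976, contains an exon of 964 bases (26458416 to 26459379) of the noncoding gene 0610009E02Rik on the opposite strand. The normalized counts of 0610009E02Rik were 44, 34 and 38 in WT, 31, 29 and 29 in hTNFtg and 12, 27 and 45 in infliximab-treated SFs, within 2 of those of Notch1 in every library. The counting is not stated to have used strand, so the transcripts of this locus cannot be told apart. A further opposite-strand gene there, Gm13568, held 83.7% as many normalized counts as Notch1 over the 9 libraries.

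Notch2, at chr3:98013527-98150361 on the plus strand, had 67, 67 and 60 normalized counts in WT SFs. Untreated hTNFtg SFs stood at 118, 92 and 75, and infliximab-treated SFs at 73, 84 and 81. Every hTNFtg library and every infliximab library was above the highest WT library. The log2 fold change in hTNFtg versus WT SFs was 0.53 (standard error 0.33, 95% interval -0.20 to 1.25, limma with Benjamini-Hochberg adjusted p = 0.726). With infliximab it was 0.29 against WT SFs (95% interval -0.18 to 0.76), where 14.2% of all genes had groups without overlap, and -0.24 against untreated hTNFtg SFs (95% interval -0.93 to 0.46).

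Gm42820, a gene model of a single exon on the same strand (98121588 to 98124650), holds 3 Notch2 exons and the intronic bases between them. Reads in these exons could be counted for both genes, and how many were is not known from the tables. The normalized counts of Gm42820 were 1, 4 and 1 in WT, 50, 18 and 4 in hTNFtg and 1, 7 and 7 in infliximab-treated SFs. Its 2 highest values were those of hTNFtg replicates 1 and 2, which also had the highest Notch2 counts. With these counts subtracted, an alternative chosen after seeing the data that takes all of them as shared, Notch2 was at 66, 63 and 59 in WT, 68, 74 and 71 in hTNFtg and 72, 77 and 74 in infliximab-treated SFs. The hTNFtg libraries remained above the WT libraries, but the log2 fold change dropped from 0.53 to 0.18 (limma, Benjamini-Hochberg adjusted p = 0.846). The difference between infliximab-treated and untreated hTNFtg SFs turned from -0.24 to 0.07.

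**Figure D2:**
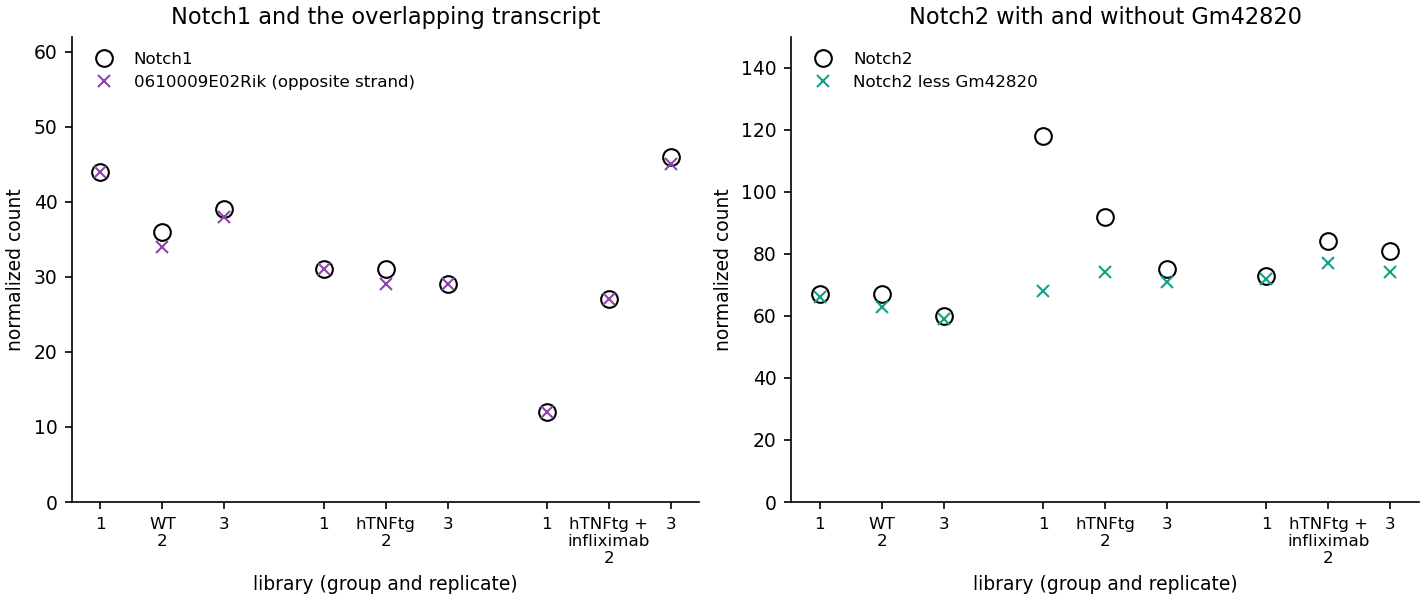
Normalized counts (vertical axes) in each library (horizontal axes) of Notch1 and the opposite-strand gene 0610009E02Rik, left, and of Notch2 before and after subtraction of Gm42820, right. The Notch1 pairs lie within 2 of each other, and hTNFtg replicate 1 drops from 118 to 68 for Notch2.

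RefSeq (GRCm38.p6) promoters, from 250 bases before to 50 bases after the start, were found for the 7 receptors and ligands, with 8 promoters in all. Hes1, Hey1 and Heyl had no entry in the promoter set used here, so the target genes were not searched. The core motif of RBPJ, TGGGAA, read on both strands, was in 0 of these 8 receptor and ligand promoters and in 25.6% of all 32851 promoters of this length. The kB consensus bound by NF-kB proteins, which TNF receptors activate, was searched on both strands as well. It was found in 4.51% of all promoters and, among the members, in that of Notch2. The AP-1 motif TGANTCA, searched on both strands, was in 7.81% of all promoters and, among the members, in 1 of those of Dll1. The kB match of Notch2, GGGAAACCCC, begins 112 bases before the start. It is in capitals in the promoter at chr3:98013288-98013587 (plus strand), shown as the member promoter with this match. Notch2 did not pass the rule in hTNFtg versus WT SFs, and the part of this site in its level was not tested.
Notch2: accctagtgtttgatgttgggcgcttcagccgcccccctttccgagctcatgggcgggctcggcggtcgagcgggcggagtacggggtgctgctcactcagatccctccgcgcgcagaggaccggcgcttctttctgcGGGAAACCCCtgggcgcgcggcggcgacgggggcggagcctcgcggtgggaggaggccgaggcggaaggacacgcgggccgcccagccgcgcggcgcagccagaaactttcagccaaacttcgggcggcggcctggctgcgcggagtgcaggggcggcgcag

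Notch3, at chr17:32120820-32166880 on the minus strand, is the receptor that vascular mural cells and perivascular fibroblasts are known for. It had normalized counts of 94, 53 and 31 in WT SFs and 25, 36 and 32 in hTNFtg SFs, and of 44, 44 and 161 with infliximab. WT and hTNFtg values overlapped, whereas all infliximab values were above all untreated hTNFtg values, with infliximab replicate 3 far above the rest. The log2 fold change in hTNFtg versus WT SFs was -0.79 (standard error 0.47, 95% interval -1.82 to 0.24, limma with Benjamini-Hochberg adjusted p = 0.726). Without WT replicate 3 it was -1.18, which passed the rule (unadjusted P = 0.0372 in limma), and without WT replicate 1 it was -0.39. Infliximab-treated against untreated hTNFtg SFs had a log2 fold change of 1.12 (standard error 0.50, 95% interval 0.03 to 2.21), which passed the rule at an unadjusted P of 0.0441 in limma, with a Benjamini-Hochberg adjusted p = 0.803. Groups without overlap made up 7.44% of all genes in this comparison. Without infliximab replicate 3 the log2 fold change was 0.51 and no longer passed (unadjusted P = 0.282 in limma). The call held without infliximab replicate 2 (1.43), and was lost without any of the other libraries, on P alone at 1.15 to 1.43 without hTNFtg replicate 2 or 3 or infliximab replicate 1, and at 0.98 without hTNFtg replicate 1. It was also lost with a pseudocount of 5, a mean of at least 10, array quality weights or the replicate number as a block, at log2 fold changes of 1.04, 1.12, 0.80 and 1.12. In edgeR it held, at 1.41 (Benjamini-Hochberg adjusted p = 0.132). Against WT SFs the infliximab value was 0.33 (95% interval -0.87 to 1.54), and -0.28 without infliximab replicate 3.

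Markers of other cell types were read in the same libraries. The 8 mural markers summed to 470 to 617 in WT, 612 to 834 in hTNFtg and 650 to 814 in infliximab-treated SFs, with Kcnj8 and Myh11 at 0 in every WT and hTNFtg library. In infliximab replicate 3, where Notch3 was highest, the mural sum was 650, the lowest of its group. Most of it came from Cnn1 (242), Mcam (216) and Cspg4 (173). Only Rgs5 of the mural markers passed the rule in hTNFtg versus WT SFs, with 26, 31 and 25 normalized counts in WT, 0, 3 and 4 in hTNFtg and 13, 21 and 9 with infliximab, and it passed it in the opposite direction after infliximab. Cspg4, with 171, 74 and 96 in WT and 321, 290 and 173 with infliximab, passed as higher in infliximab-treated hTNFtg versus WT SFs, and Mcam was at 90 to 114 in WT, 139 to 193 in hTNFtg and 130 to 216 with infliximab, highest in infliximab replicate 3. Infliximab replicate 3 also held 794 normalized counts over the 8 hepatocyte markers, against 11 to 44 in the other 8 libraries. The part of these cells in the Notch3 values was not tested.

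The make-up of the receptor reads was then compared between the groups, with the Notch1 reads as counted, which may belong to 0610009E02Rik. Notch2 held 32.7%, 42.9% and 45.9% of the receptor reads in WT SFs and 67.9%, 57.8% and 55.3% in hTNFtg SFs. With infliximab the shares were 56.4%, 54.1% and 28.2%. WT and hTNFtg SFs did not overlap, while the infliximab libraries ran from below the WT range to just above the lowest hTNFtg library. The mean difference of 19.8 percentage points between hTNFtg and WT SFs gave p = 0.10 in a two-sided exact permutation test, the smallest that 3 against 3 libraries allow. The share in hTNFtg replicate 1 came from 28 reads, with a 95% Wilson interval of 49.3% to 82.1% for counting error. Notch3 held 46.0%, 34.3% and 24.0% in WT SFs, 14.3%, 22.7% and 23.5% in hTNFtg SFs and 34.2%, 28.5% and 55.9% with infliximab. The hTNFtg shares of Notch3 were below all others, with p = 0.10 against each of the other groups by the same exact permutation test. With Gm42820 subtracted from Notch2, this did not hold against WT SFs. Notch1, Notch2 and Notch3 then had 31, 74 and 36 normalized counts in hTNFtg replicate 2 and 39, 59 and 31 in WT replicate 3. The Notch3 share was thus higher in that hTNFtg library, and no test was run on these shares. The ratio of Notch2 to Notch1 was 1.52 to 1.86 in WT and 2.59 to 3.81 in hTNFtg SFs, and 1.5 to 1.75 against 2.19 to 2.45 with Gm42820 subtracted (exact permutation p = 0.10 for each). With infliximab it was 1.76 to 6.08, overlapping both groups (exact permutation p = 0.80 against hTNFtg and 0.20 against WT SFs).

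**Figure D3:**
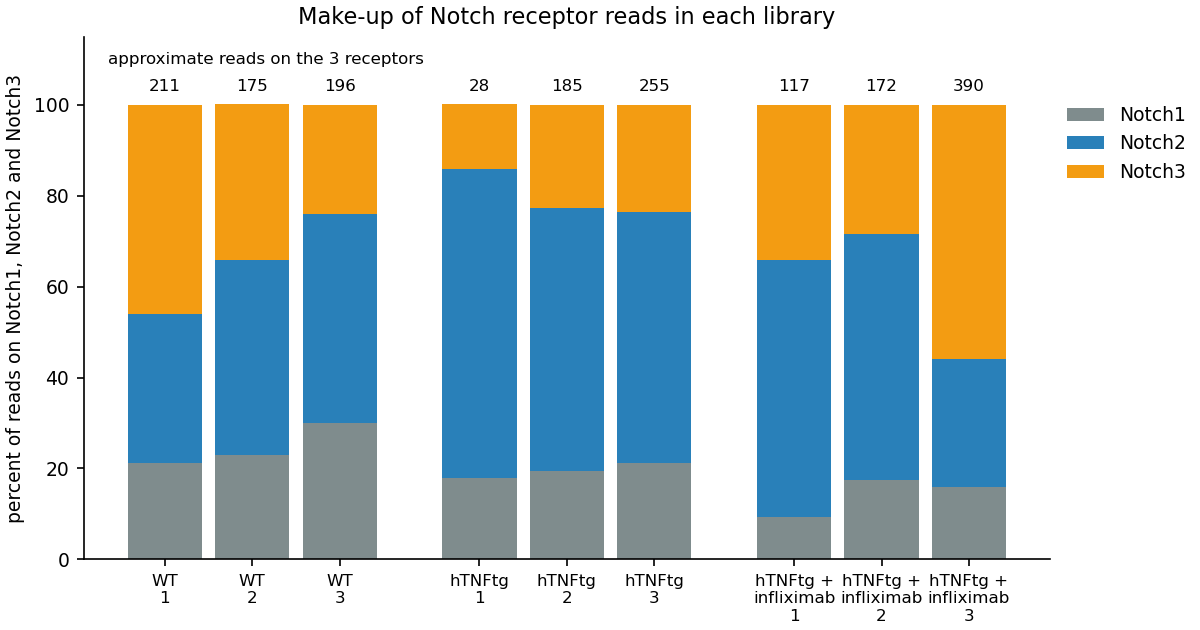
Percent of reads on Notch1, Notch2 and Notch3 (vertical axis) in each library, as stacked bars, with the approximate number of receptor reads above each bar. Notch2 takes 55.3% to 67.9% in hTNFtg libraries and 32.7% to 45.9% in WT libraries.

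Among the ligands, Jag1 was the one with reads above the floor. Jag1 encodes a Jagged ligand and lies on the minus strand of chr2:137081456-137116644. Its normalized counts were 85, 142 and 171 in WT SFs, 75, 91 and 250 in hTNFtg SFs and 76, 87 and 134 with infliximab. The groups overlapped fully, and the highest value was that of hTNFtg replicate 3, the deepest library. The log2 fold change was -0.09 in hTNFtg versus WT SFs (standard error 0.46, 95% interval -1.10 to 0.92, limma with Benjamini-Hochberg adjusted p = 0.963) and took either sign when libraries were left out, from -0.62 to 0.24. It was -0.31 after infliximab (95% interval -1.25 to 0.62) and -0.40 between infliximab-treated hTNFtg and WT SFs (95% interval -1.09 to 0.29).

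The other ligands were not detectable above the floor at this depth. Jag2 (chr12:112908590-112929495) and the Delta-like ligand Dll1 (chr17:15367354-15376872) had 0 or 1 normalized count in every library. Dll4 (chr2:119325784-119335962), known as the ligand of endothelial tip cells, was at 0 in 8 libraries and at 1 in hTNFtg replicate 3. In hTNFtg replicate 1, a count of 0 allows up to 18.7 normalized counts. The 12 endothelial markers summed to 292 to 304 in WT, 112 to 244 in hTNFtg and 188 to 243 in infliximab-treated SFs. Egfl7 made up most of each sum, with 280 to 295, 106 to 236 and 178 to 236, and did not pass the rule in any comparison. Sox18, with 6, 3 and 2 in WT SFs and 0 in each hTNFtg library, passed as lower in hTNFtg versus WT SFs. Of the 12, 9, 7 and 9 were at the floor in the 3 groups, with Tie1 at 0 throughout.

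Hes1, a repressor of the basic helix-loop-helix class and a direct target of Notch signalling, is at chr16:30064384-30067796 on the plus strand. It had 100, 116 and 124 normalized counts in WT SFs, 93, 143 and 390 in hTNFtg SFs and 178, 138 and 221 with infliximab. The WT values were close together, the hTNFtg values spread on both sides of them, and all infliximab values were above all WT values. The log2 fold change in hTNFtg versus WT SFs was 0.61 (standard error 0.46, 95% interval -0.39 to 1.62, limma with Benjamini-Hochberg adjusted p = 0.726), 0.03 without hTNFtg replicate 3 and 1.06 without hTNFtg replicate 1 (unadjusted P = 0.0662 in limma). In edgeR it was 0.89 (unadjusted P = 0.0203, Benjamini-Hochberg adjusted p = 0.304). Between infliximab-treated hTNFtg and WT SFs it was 0.63 (standard error 0.22, 95% interval 0.14 to 1.13, unadjusted P = 0.0179, Benjamini-Hochberg adjusted p = 0.278 in limma), below the size that the rule asks for. The difference between infliximab-treated and untreated hTNFtg SFs was 0.02 (95% interval -0.93 to 0.97), and -0.24 in edgeR.

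Hey1 and Heyl, repressors of the Hey family, were scarce. Hey1 (chr3:8663359-8667256) had 9, 10 and 5 normalized counts in WT SFs, 0, 3 and 11 in hTNFtg SFs and 3, 8 and 13 with infliximab, with overlap between all groups. Its log2 fold changes had wide intervals, -3.46 to 0.94 around -1.26 in hTNFtg versus WT SFs and -1.14 to 3.40 around 1.13 after infliximab. The former was -0.33 without hTNFtg replicate 1 and in edgeR, and -2.12 without hTNFtg replicate 3. In infliximab-treated hTNFtg versus WT SFs it was -0.13 (95% interval -1.50 to 1.24).

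Heyl (chr4:123233556-123249875) had 1, 1 and 2 normalized counts in WT SFs, 0 in each hTNFtg library and 2, 1 and 6 with infliximab. The highest value corresponds to 8 reads, in infliximab replicate 3, which was also the highest library for Notch3. Heyl passed the rule after infliximab (unadjusted P = 0.0176, Benjamini-Hochberg adjusted p = 0.803 in limma), but the infliximab mean of 3.0 lies below what the floor of untreated hTNFtg SFs allows, so no fold is given. Without hTNFtg replicate 2 or 3, or with a pseudocount of 5, Heyl did not pass.

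**Figure D4:**
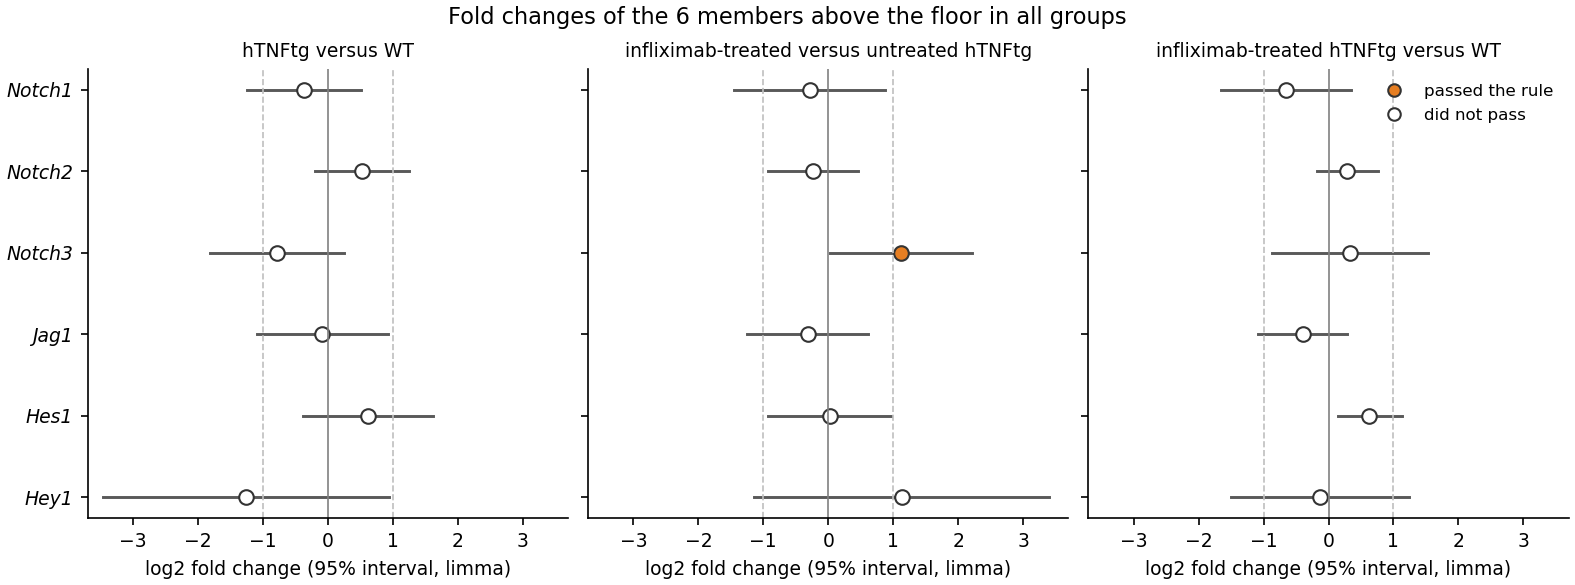
Log2 fold change (horizontal axes, limma, with 95% intervals) of the 6 members above the floor in every group, in the 3 comparisons. Filled points passed the study's rule and dashed lines mark a log2 fold change of 1 in size. Notch3 after infliximab, at 1.12, is the one filled point, and its interval runs from 0.03 to 2.21.

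Beyond the members, 45 further Notch pathway genes were listed, and 44, 43 and 44 of them could be tested in the 3 comparisons. In hTNFtg versus WT SFs, 5 were higher and 2 lower by the rule, beside 3.35% and 3.04% of all genes. Their median log2 fold change was 0.08. After infliximab 0 passed in limma, beside 1.49% of all genes higher and 0.936% lower, with a median of 0.01. Of the list, 1 had an unadjusted P under 0.05 in limma and 1 passed the rule in edgeR. In infliximab-treated hTNFtg versus WT SFs 1 was higher and 2 lower, beside 3.86% and 2.95% of all genes, with a median of 0.21. By role, the genes that passed in hTNFtg versus WT SFs included 2 of 4 further receptors and ligands, of which Dll3 was at the floor in both groups. The others were 1 of 5 for ligand ubiquitination, 2 of 9 of the nuclear complex and corepressors and 2 of 8 for receptor turnover. Of the genes for receptor glycosylation (5), cleavage (9) and further targets (4 tested), 0 passed. Of the cleavage genes, Adam17 and Aph1a had counts that the opposite-strand genes Iah1 and Car14 matched at 99.1% and 98.6% over the 9 libraries, so these 2 cannot be assigned either. The shares of all genes in each comparison are the background for these counts. The list was written with earlier results of these data known, so the counts are a description and no test of the pathway.

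Rbpj encodes the DNA-binding protein through which all Notch receptors act. It had 136, 117 and 126 normalized counts in WT SFs, 324, 205 and 267 in hTNFtg SFs and 199, 142 and 207 with infliximab. The WT libraries were the lowest, the hTNFtg libraries were all above them, and the infliximab libraries lay above WT and reached into the hTNFtg range. Rbpj passed as higher in hTNFtg versus WT SFs, at 1.04 on the log2 scale (standard error 0.29, unadjusted P = 0.00444, Benjamini-Hochberg adjusted p = 0.218 in limma). This call was lost on size without hTNFtg replicate 1 (0.89) or WT replicate 2 (0.99), with array quality weights (0.82) and in edgeR (0.99). It was 0.51 between infliximab-treated hTNFtg and WT SFs (95% interval 0.04 to 0.98) and -0.53 after infliximab (95% interval -1.17 to 0.11). The promoter of Rbpj at chr5:53590096-53590395 (plus strand, RefSeq GRCm38.p6) holds the RBPJ core TGGGAA 149 bases before the start and its reverse complement TTCCCA 65 bases before it, both in capitals. It is shown as the promoter, among those searched here, that holds this motif on both strands, beside 25.6% of all promoters with a match. No Rbpj promoter searched holds the kB consensus. The promoters of Tle1 and Dlk1 were searched too and hold neither this motif nor the kB consensus. Those of Fbxw7, Dtx4 and Dll3, which also passed the rule, were not searched.
Rbpj: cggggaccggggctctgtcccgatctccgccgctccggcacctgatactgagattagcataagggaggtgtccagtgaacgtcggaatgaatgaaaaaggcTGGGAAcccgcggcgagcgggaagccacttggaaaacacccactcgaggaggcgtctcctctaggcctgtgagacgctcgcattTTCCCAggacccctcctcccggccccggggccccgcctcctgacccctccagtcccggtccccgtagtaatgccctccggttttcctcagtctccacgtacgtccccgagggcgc

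Neurl3, a member of the Neuralized family of ubiquitin ligases, differed most in size. Its normalized counts were 1, 1 and 0 in WT SFs, 50, 21 and 17 in hTNFtg SFs and 14, 6 and 13 with infliximab. All hTNFtg libraries were above all infliximab libraries, and these above all WT libraries. With WT SFs at the floor, the Neurl3 mean was 11.6 times the mean WT floor in hTNFtg SFs and 4.37 times with infliximab. Against WT SFs, limma gave hTNFtg SFs an unadjusted P = 0.00041 (Benjamini-Hochberg adjusted p = 0.064). Infliximab-treated SFs had an unadjusted P = 0.0011 (Benjamini-Hochberg adjusted p = 0.0849) in limma. Without hTNFtg replicate 1, whose 50 normalized counts rest on 8 reads, the first ratio was 7.54. Without infliximab replicate 1 the second was 3.77. These ratios allow for counting error in WT SFs only. In hTNFtg versus WT SFs the adjusted p of Neurl3 was 7.1e-06 in edgeR. In limma it was 0.00489 with array quality weights and 0.478 with the replicate number as a block. After infliximab its log2 fold change was -1.26 (95% interval -2.66 to 0.14), which did not pass. Its promoter at chr1:36273376-36273675 (minus strand, RefSeq GRCm38.p6) has a match to the kB consensus, GGAAAGTCCC on the strand shown, from 110 bases before the start. The match is in capitals, and 4.51% of all promoters had such a match. The sequence is shown beside that of Notch2, the member with a match. The part of this site in the Neurl3 level was not tested.
Neurl3: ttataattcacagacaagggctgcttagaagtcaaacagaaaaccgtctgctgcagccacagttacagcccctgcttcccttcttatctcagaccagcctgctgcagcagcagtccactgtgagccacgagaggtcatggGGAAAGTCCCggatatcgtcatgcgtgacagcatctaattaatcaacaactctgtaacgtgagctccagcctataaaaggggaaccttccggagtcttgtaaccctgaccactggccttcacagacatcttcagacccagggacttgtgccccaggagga

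Dlk1, a noncanonical ligand known from preadipocytes, was lower in SFs of hTNFtg mice with and without infliximab. It had 137, 106 and 102 normalized counts in WT SFs, 62, 21 and 9 in hTNFtg SFs and 31, 38 and 23 with infliximab, so that every hTNFtg library was below every WT library. Its log2 fold change was -2.26 in hTNFtg versus WT SFs (standard error 0.58, Benjamini-Hochberg adjusted p = 0.163 in limma) and -1.89 in infliximab-treated hTNFtg versus WT SFs (standard error 0.27, Benjamini-Hochberg adjusted p = 0.0207 in limma). Without hTNFtg replicate 1, whose value rests on 10 reads, the first of these was -2.95, and without hTNFtg replicate 3 it was -1.63. Between infliximab-treated and untreated hTNFtg SFs it was 0.37 (standard error 0.63). The adjusted p of Dlk1 in hTNFtg versus WT SFs depended on the method. It was 6.44e-05 in edgeR, at a log2 fold change of -2.36. In limma it was 0.00242 with array quality weights and 0.529 with the replicate number as a block. Dll3, the remaining ligand that passed as lower, was at the floor in each group.

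Tle1, a corepressor of the Groucho family, had 37, 45 and 38 normalized counts in WT SFs, 100, 57 and 100 in hTNFtg SFs and 54, 63 and 61 with infliximab. All 6 hTNFtg libraries, with and without infliximab, were above the WT libraries. Its log2 fold change was 1.04 in hTNFtg versus WT SFs (standard error 0.37, Benjamini-Hochberg adjusted p = 0.421 in limma). Fbxw7, a ubiquitin ligase subunit that marks the Notch intracellular domain for degradation, had 40, 38 and 63 in WT, 69, 94 and 124 in hTNFtg and 74, 55 and 66 in infliximab-treated SFs. It was higher in hTNFtg than in WT SFs without overlap, and its log2 fold change was 1.01 (standard error 0.38, Benjamini-Hochberg adjusted p = 0.473 in limma). It lies inside Gm37240, a gene on the opposite strand with 219 to 293 normalized counts, so some reads may be counted for both.

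Dtx4, a Deltex-family ubiquitin ligase, had 31, 84 and 35 normalized counts in WT SFs, 62, 142 and 251 in hTNFtg SFs and 64, 66 and 106 with infliximab. WT and hTNFtg ranges overlapped, and the log2 fold change was 1.51 (standard error 0.53, Benjamini-Hochberg adjusted p = 0.401 in limma). The adjusted p of Dtx4 was 0.00294 in edgeR, at a log2 fold change of 1.63. In limma it was 0.0714 with array quality weights and 0.605 with the replicate number as a block. With libraries left out in turn, the log2 fold change ran from 0.91 to 1.31 for Tle1, 0.80 to 1.23 for Fbxw7 and 1.04 to 2.04 for Dtx4, and each call was lost in some of these fits, that of Tle1 on size and that of Dtx4 on P.

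**Figure D5:**
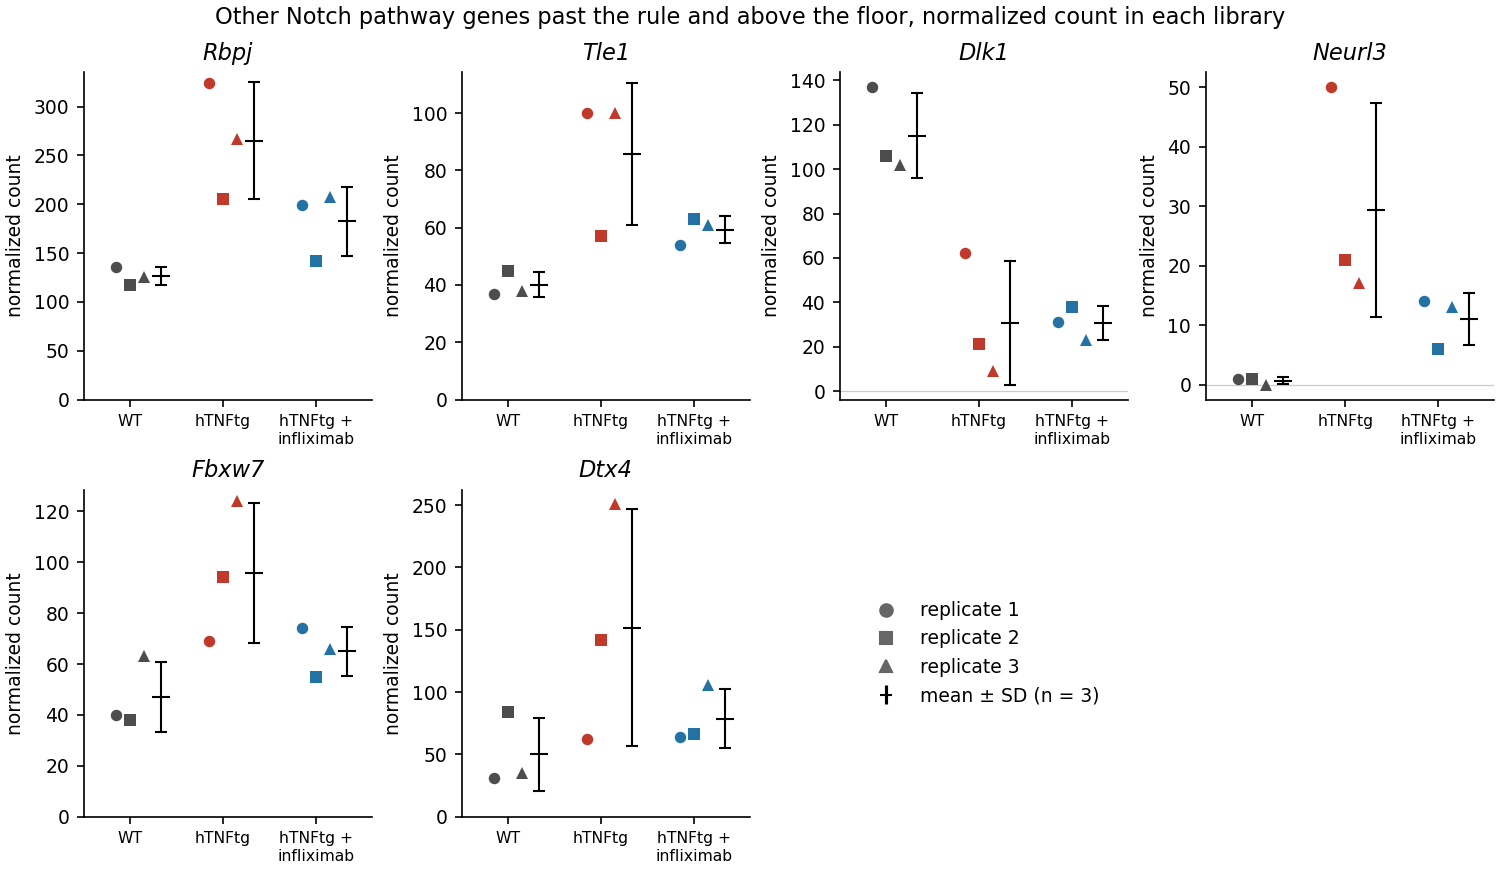
Normalized count (vertical axes, linear) of the 6 further pathway genes that passed the rule in at least 1 comparison above the floor, by group. Symbols are libraries and bars the mean ± SD (n = 3). Rbpj, Tle1 and Neurl3 are lowest in WT and Dlk1 is highest in WT.

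The genes whose levels ran most alike with the leading receptor, ligand and target were sought over the 9 libraries among 13600 genes with a mean of at least 10. The libraries share a normalization and differ in depth and group, so Pearson's r is a description here. For Notch2 these were Stk24, Chrd and Txnrd1 (r = 0.96 for each), all highest in hTNFtg replicate 1, the shallow library. Notch2 was used as counted here, at 118 in that library. Subtracting Gm42820 takes it to 68 there, below hTNFtg replicates 2 (74) and 3 (71). For Jag1 the genes most alike were Smagp, Pdcd2 and Dazap2 (r = 0.98 for each), and all were highest in hTNFtg replicate 3. S100a6 (r = 0.98), Pcsk7 and Tagln (r = 0.97 for each) were most like Hes1, with their highest values in the same library. S100a6 stood at 119140 normalized counts there and at 22042 to 66292 in the others. Pcsk7 and Tagln overlap on opposite strands with counts within 8 of each other in every library, so they are not separate observations.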

How the data were processed

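The study's methods describe SFs in culture, QuantSeq 3′ mRNA libraries and Ion Proton sequencing. According to these methods, the authors mapped reads to mm10 with TopHat2, mapped the remaining reads with Bowtie2, counted per gene with GenomicRanges and ran DESeq through metaseqR, with versions not given in the sources used here. What was analysed is a score that the authors deposited for each gene and library, namely normalized counts in whole numbers. They were taken as counts scaled with 1 factor for the whole library and then rounded, which the methods do not state. In hTNFtg replicate 1 the deposited signal falls on multiples of what 1 read is worth, so its whole reads were recovered for 100% of its low values. Elsewhere reads are approximate and rest on this assumption, as do the floors and the edgeR results. The log2 fold changes, p-values and normalized columns with the prefix rpgm (12 columns) that the authors deposited were not used.

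Groups were compared pairwise, as designed for normalized counts, with limma 3.58.1 (lmFit, eBayes with trend, R 4.3.3) on log2(normalized count + 1), over genes with a value above 0 in any of the 6 libraries. P-values were adjusted by Benjamini-Hochberg over all genes tested. On simulated 4-fold changes in 200 genes, limma recovered 88%, 89% and 84.5% by the rule for hTNFtg against WT SFs, infliximab against no treatment and infliximab against WT SFs, among 27748, 27688 and 27866 genes, and 3%, 5.5% and 0% at an adjusted p under 0.05. As an alternative, edgeR 4.0.16 (quasi-likelihood test on the recovered and approximate reads) gave 915, 165 and 1324 genes at an adjusted p under 0.05. Gene positions are from GENCODE M21 (mm10). The members and gene lists were chosen with earlier results of these data known. All members are named, as are the other pathway genes past the rule in any comparison (some listed genes are not reported here), and the 3 genes most like the leading receptor, ligand and target.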

Additional observations from a re-analysis of the deposited data

How the results depend on the processing

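The alternatives were a pseudocount of 5, genes with a mean of at least 10, median-ratio rescaling, array quality weights, the replicate number as a block, edgeR on approximate reads, and each library left out in turn. The 1 member called in hTNFtg versus WT SFs, at the floor in both groups, became 0 with a pseudocount of 5, a mean of at least 10 or edgeR, and 0 to 1 with libraries left out, where without WT replicate 3 the called member was Notch3 (-1.18) in place of Heyl. The 2 members called after infliximab became 0 with a pseudocount of 5 or a mean of at least 10, 1 with array quality weights, and 0 to 2 with libraries left out. In infliximab-treated hTNFtg versus WT SFs, 0 became 0 to 1 with libraries left out. Of the other pathway genes, 7 (5 higher and 2 lower) became 4 with a pseudocount of 5, 9 with array quality weights (5 higher and 4 lower) and 4 to 6 with libraries left out in hTNFtg versus WT SFs. Their count after infliximab, 0 in limma (1 at an unadjusted P under 0.05), became 2 with array quality weights, 1 in edgeR and 0 to 3 with libraries left out. In infliximab-treated hTNFtg versus WT SFs, 3 became 1 with a mean of at least 10 and 3 to 7 with libraries left out. A stricter mean tests fewer genes, and the other causes were not tested.

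Log2 fold changes near 0 took the other sign in some settings. In hTNFtg versus WT SFs, Jag1 was 0.08 in edgeR. Hes1 was -0.24 in edgeR after infliximab, Notch2 0.07 with Gm42820 subtracted, and Hey1 0.13 in edgeR in infliximab-treated hTNFtg versus WT SFs. With libraries left out, Jag1 ran from -0.62 to 0.24 in hTNFtg versus WT SFs. After infliximab Notch1 ran from -0.72 to 0.21, Jag1 from -0.65 to 0.22, Hes1 from -0.42 to 0.60 and Dlk1 from -0.26 to 1.07. In infliximab-treated hTNFtg versus WT SFs, Notch3 ran from -0.28 to 0.73 and Hey1 from -0.54 to 0.37. The cause of these shifts was not tested.

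The deviations of same-numbered libraries had correlations of -0.147 to 0.353, with 0.0698, 0.197 and 0.265 between infliximab-treated and untreated hTNFtg SFs. A library had its own number as the best partner in 2, 2 and 1 of 3 cases in the 3 comparisons. With 3 libraries in a group, this cannot tell whether the numbers are pairs. The sample labels state no pairing, and the main fits took the libraries as unpaired. With the replicate number as a block, the members called after infliximab went from 2 to 1, as Notch3 no longer passed at a log2 fold change of 1.12 (unadjusted P = 0.0835 in limma).

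Over all genes, the 137 with an adjusted p under 0.05 in hTNFtg versus WT SFs became 1004 with array quality weights, 915 in edgeR, 0 with the block and 1 to 44 with libraries left out. After infliximab, 0 (1026 at an unadjusted P under 0.05 in limma) became 65 with the weights and 165 in edgeR. In the comparison with WT SFs, the 209 became 488 with a mean of at least 10, 378 with the weights, 1324 in edgeR, 0 with the block and 0 to 1 with libraries left out. By the rule, 426 genes were higher and 267 lower after infliximab, against 518 and 710 in edgeR and 754 and 1390 with the weights. The depth of hTNFtg replicate 1 limits what can be said of members under 18.7 normalized counts.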
